A study of Homo sapiens with 15 samples.

Results

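The 10 genes described here encode parts of the contractile apparatus of striated muscle, and they were followed across the 15 libraries of an RNA sequencing experiment. They were found by symbol in the deposited count table, where 10 of 10 symbols matched 1 row each among 28207 rows. The set holds a myosin heavy chain (MYH6), 4 myosin light chains (MYL1, MYL4, MYL7, MYLPF), a myosin light chain kinase (MYLK3), an actin (ACTC1), 2 troponin subunits (TNNT2, TNNI1) and the intermediate filament protein desmin (DES). All 10 passed the filter on low counts.

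The cells were NTERA2, an established human embryonal carcinoma line, grown in medium with 10% serum. They received siRNA 2 times over 7 days, and 3 libraries were made for each of 5 siRNAs. The groups were a control siRNA (siControl) and siRNAs against IGF2BP1 (siIGF2BP1), SRF (siSRF), FOXM1 (siFOXM1) and IQGAP3 (siIQGAP3). IGF2BP1 binds mRNA, SRF and FOXM1 are transcription factors, IQGAP3 is a scaffold protein, and the series concerns IGF2BP1, IQGAP3 and stemness. Separate cultures are not stated for these libraries, and the spread behind every p-value may therefore be technical. In RNA of bulk cells, fewer cells of a type and less RNA per cell cannot be told apart.

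In the sarcomere, myosin thick filaments slide along actin thin filaments when calcium binds the troponin complex. Each myosin heavy chain carries light chains on its neck, and MYLK3 is a kinase that phosphorylates the regulatory light chain in heart muscle. Desmin links neighbouring sarcomeres at the Z disc and is not part of either filament. SRF binds a short A/T-rich motif, the CArG box, and together with myocardin family coactivators drives many muscle genes.

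The libraries of a group did not all lie together, and this touches every result below. Each library held 35275570 to 44996064 counts. Libraries are numbered 1 to 3 in the order of the table only to name them. Between libraries 1 and 2 of a group, 10 to 43 of 18760 tested genes differed by at least 4-fold in CPM (counts per 1000000, on TMM-scaled library sizes). Between either of them and library 3 the number was 808 to 3777 in siControl, siIGF2BP1, siSRF and siFOXM1, and 15 to 24 in siIQGAP3. Group means of the targeted genes were lower in their own knockdown, at 20.8% of the control mean for IGF2BP1, 7.51% for SRF, 20.6% for FOXM1 and 48.0% for IQGAP3. SRF was also at 7.97% in siIGF2BP1, and FOXM1 at 30.0% and 29.3% in siIGF2BP1 and siSRF. IQGAP3 was at 17.9%, 19.7% and 6.70% in siIGF2BP1, siSRF and siFOXM1. Of the 20407 genes in both deposited tables, 9 depart from 1 factor per library between them, the 4 targets included and no sarcomere gene. POU5F1 and NANOG, which are on the embryonal carcinoma list below, also depart. All 12 markers of embryonal carcinoma and pluripotent cells had counts in every library. Their summed level was 1830 to 4610 CPM in siControl, 454 to 577 in siIGF2BP1, 484 to 577 in siSRF, 335 to 1370 in siFOXM1 and 5060 to 5190 in siIQGAP3.

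Of the 10 genes, 9 shared much of their pattern over the libraries and DES did not. The 9 had group means below siControl in siIGF2BP1 and siSRF. Apart from MYL1 they were above every siControl library in siFOXM1 libraries 1 and 2, and in siFOXM1 library 3 all of them were lower than in those libraries. DES was low in every knockdown library. In edgeR's quasi-likelihood test of all 15 libraries, with Benjamini-Hochberg adjustment over all genes and a threshold of 0.05, DES fell in all 4 knockdowns and MYL1 rose in siIQGAP3. No other comparison of a sarcomere gene with siControl passed.

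**Figure D1:**
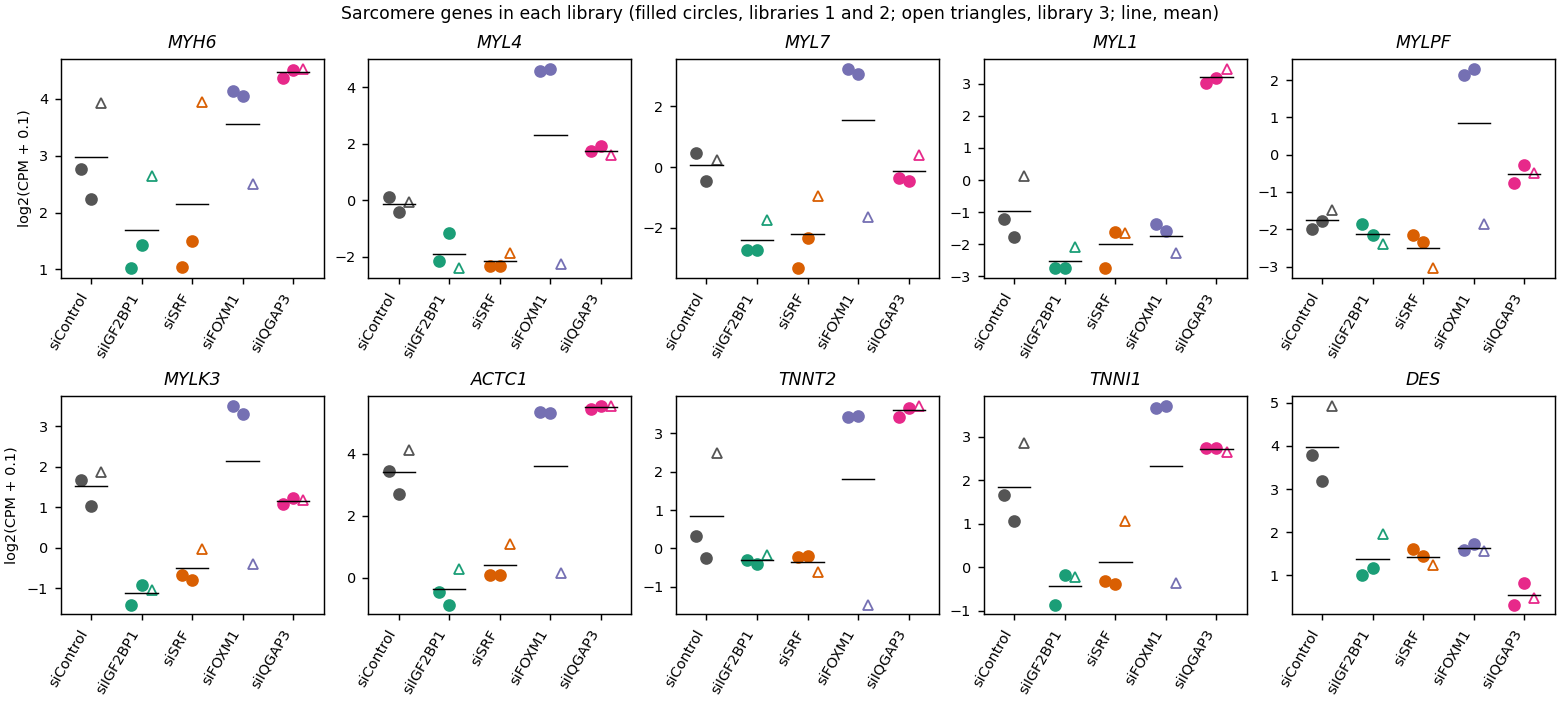
Level of each sarcomere gene in each library, as log2(CPM + 0.1) on a linear axis, by siRNA group. Filled circles are libraries 1 and 2, open triangles are library 3, and the line is the mean of the 3 plotted values. ACTC1 was at 40.2 and 39.8 CPM in siFOXM1 libraries 1 and 2 and at 1.02 in library 3, and all DES points of the knockdowns lie below all siControl points.

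The thin filament is represented by ACTC1, the cardiac actin, and by the troponin subunits described below. ACTC1 was at 10.7, 6.33 and 17.1 CPM in the siControl libraries, at 0.629, 0.453 and 1.12 in siIGF2BP1, and at 0.978, 0.967 and 2.01 in siSRF. It was at 43.1, 46.2 and 46.4 CPM in siIQGAP3. The siIGF2BP1 and siSRF libraries all lay below siControl, and the siIQGAP3 libraries all above. Mean levels were 0.733 ± 0.345 CPM in siIGF2BP1 and 11.4 ± 5.4 in siControl (SD, n = 3 each), or 6.45% of control. That difference, -3.94 ± 0.95 (SE) as a log2 fold change, did not pass by edgeR (adjusted p = 0.0617). In siSRF the log2 fold change was -3.10 ± 0.91 (adjusted p = 0.120 by edgeR), and in siIQGAP3 it was 1.99 ± 0.85 (adjusted p = 0.0899). In siFOXM1 libraries 1 and 2 averaged 39.1 times the level of library 3, and the log2 fold change was 1.24 ± 0.83 (adjusted p = 0.629).

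The ACTC1 promoter carries the motif that SRF reads, and is shown for that reason together with that of MYL7, the other sarcomere gene with an exact match. Of the 10 genes, 6 have entries in the RefSeq promoter table (build GRCh38.p14), with 10 windows of 300 bases, each from 250 bases before a transcript start to 50 bases from it. The others, MYL4, MYLPF, TNNI1 and DES, have none there. An exact CArG box (10 letters, searched on both strands) was found in 2 of the 10 windows, against 454 of all 35116 windows, or 1.29%. The ACTC1 window lies on the minus strand at chr15:34795500-34795799 and that of MYL7 on the minus strand at chr7:44141283-44141582. Capitals mark the CArG box, which begins 109 bases before the start in ACTC1 (position -109) and 61 bases before it in MYL7 (position -61).
ACTC1: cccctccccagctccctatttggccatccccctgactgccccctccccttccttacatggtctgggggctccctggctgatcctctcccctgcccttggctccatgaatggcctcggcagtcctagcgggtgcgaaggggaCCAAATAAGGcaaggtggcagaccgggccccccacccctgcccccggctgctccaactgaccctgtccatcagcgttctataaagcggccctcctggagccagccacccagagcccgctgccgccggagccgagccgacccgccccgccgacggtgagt
MYL7: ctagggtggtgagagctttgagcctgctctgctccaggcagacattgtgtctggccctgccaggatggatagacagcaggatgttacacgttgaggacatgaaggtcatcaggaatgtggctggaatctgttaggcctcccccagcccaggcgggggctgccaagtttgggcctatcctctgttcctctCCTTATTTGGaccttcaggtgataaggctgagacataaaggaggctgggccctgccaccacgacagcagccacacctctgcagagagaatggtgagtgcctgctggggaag
These matches describe the letters only, and SRF binding was not measured here. No exact match stands in the other ACTC1 windows or in those of MYL1, MYLK3, TNNT2 and MYH6. TATAAA, searched here on each gene's own strand only, is in the ACTC1 window shown and in that of MYH6, beginning at positions -31 and -30. Searched on both strands, it is in 11.5% of all windows, so the searches are not alike.

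Among the light chains, MYL7, the atrial regulatory light chain, was scarce in siIGF2BP1 and siSRF. It was at 1.27, 0.625 and 1.07 CPM in siControl, and its counts were 2, 2 and 9 in siIGF2BP1 and 0, 4 and 19 in siSRF. All of these libraries lay below every siControl library. The log2 fold changes of MYL7 were -3.23 ± 1.23 in siIGF2BP1 and -2.48 ± 1.16 in siSRF, which did not pass by edgeR (adjusted p = 0.239 and 0.353). In siFOXM1 MYL7 was at 9.30 and 8.31 CPM in libraries 1 and 2 and at 0.218 in library 3 (2.58 ± 1.09, adjusted p = 0.344). In siIQGAP3, at 0.685, 0.635 and 1.21 CPM, the libraries overlapped siControl.

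MYL4, the atrial essential light chain, showed the widest split within siFOXM1 of the sarcomere genes. MYL4 was at 24.0 and 24.9 CPM in siFOXM1 libraries 1 and 2 and at 0.109 CPM, from 5 counts, in library 3, a 225-fold difference. In siControl it was at 0.968, 0.652 and 0.854 CPM. The siFOXM1 group therefore lay on both sides of siControl, and its log2 fold change of 4.30 ± 1.15 did not pass by edgeR (adjusted p = 0.108). MYL4 lay below every siControl library in siIGF2BP1, at 0.0895 to 0.352 CPM, and in siSRF, at 0.0991 to 0.175 CPM. The log2 fold changes of -2.12 ± 1.14 and -2.68 ± 1.19 did not pass (adjusted p = 0.403 and 0.321 by edgeR). The siIQGAP3 libraries, at 3.23, 3.67 and 2.95 CPM, all lay above siControl (1.99 ± 1.06, adjusted p = 0.165).

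MYL1, the essential light chain of fast skeletal muscle, rose in siIQGAP3. MYL1 was at 0.331, 0.190 and 0.982 CPM in siControl and at 8.05, 8.86 and 10.8 CPM in siIQGAP3, where the mean was 9.25 ± 1.44 against 0.501 ± 0.422 CPM (SD, n = 3). Every siIQGAP3 library lay above every siControl library. The log2 fold change was 4.18 ± 0.65 (adjusted p = 0.000907 by edgeR), and it was 3.24 against siControl library 3 alone. The call was lost when libraries 1 and 2 of each group were summed (3.97, adjusted p = 0.0972). The counts in siIGF2BP1 were 2, 2 and 6, those in siSRF 2, 9 and 10 and those in siFOXM1 11, 9 and 5. MYL1 is the light chain for which siFOXM1 libraries 1 and 2 were not high, at 0.291 and 0.235 CPM, within the siControl range. Direct comparisons of the knockdowns by edgeR gave lower MYL1 than in siIQGAP3 for siIGF2BP1 (-6.81 ± 0.76, adjusted p = 0.000105), siSRF (-5.78 ± 0.71, adjusted p = 0.000223) and siFOXM1 (-5.44 ± 0.70, adjusted p = 0.00033).

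MYLPF, the fast skeletal regulatory light chain, was near the limit of counting outside siFOXM1 and siIQGAP3. Its counts were 6, 7 and 12 in siControl, 7, 5 and 4 in siIGF2BP1 and 5, 4 and 1 in siSRF. The siSRF libraries lay below siControl and those of siIGF2BP1 overlapped it, and neither difference passed by edgeR (-1.28 ± 0.96, adjusted p = 0.603, and -0.62 ± 0.91, adjusted p = 0.793). In siFOXM1 MYLPF was at 4.26 and 4.81 CPM in libraries 1 and 2 and at 0.174 in library 3, and the log2 fold change of 3.92 ± 0.89 was just short of the threshold by edgeR (adjusted p = 0.0568). The siIQGAP3 libraries held 18, 25 and 22 counts, all above siControl in CPM (1.58 ± 0.85, adjusted p = 0.171).

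The kinase MYLK3 lay low in siIGF2BP1 and siSRF and high in siFOXM1 libraries 1 and 2. It was at 3.08, 1.96 and 3.54 CPM in siControl, at 0.277, 0.427 and 0.380 in siIGF2BP1 and at 0.526, 0.471 and 0.875 in siSRF. Both knockdowns lay below siControl without overlap, and MYLK3 was also the gene of the set whose siIGF2BP1 and siSRF libraries did not overlap each other. The log2 fold changes were -2.97 ± 0.74 and -2.19 ± 0.71 and did not pass by edgeR (adjusted p = 0.0715 and 0.163). In siFOXM1 it was at 11.3, 9.83 and 0.653 CPM (1.34 ± 0.68, adjusted p = 0.463), and in siIQGAP3, with 73, 77 and 78 counts, it was within the siControl range in CPM.

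Of the troponins, TNNT2, the cardiac subunit that anchors the complex to tropomyosin, depended on 1 control library. Its siControl libraries 1 and 2 held 1.15 and 0.733 CPM, and library 3 held 5.55 CPM. The siIGF2BP1 and siSRF libraries held 0.547 to 0.783 CPM and overlapped siControl. Their log2 fold changes of -1.79 ± 0.96 and -1.85 ± 0.96 (adjusted p = 0.400 and 0.411 by edgeR) were -0.40 and -0.45 without siControl library 3 (adjusted p = 0.892 and 0.828). In siIQGAP3 TNNT2 was at 10.6, 12.5 and 13.2 CPM, above every siControl library (2.28 ± 0.95, adjusted p = 0.0822 by edgeR). Without siControl library 3 it passed there (3.68, adjusted p = 0.0102), as did 10711 of all 18965 genes tested in that fit. In siFOXM1 TNNT2 was at 10.8 CPM in each of libraries 1 and 2 and at 0.261 in library 3.

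TNNI1, the slow skeletal inhibitory subunit that is also expressed in embryonic heart, was low in siIGF2BP1. It was at 3.06, 1.98 and 7.08 CPM in siControl, at 0.453, 0.779 and 0.760 in siIGF2BP1 and at 0.702, 0.669 and 1.99 in siSRF. The siIGF2BP1 libraries did not overlap siControl (-2.60 ± 0.85, adjusted p = 0.163 by edgeR), and 1 siSRF library did (-1.85 ± 0.82, adjusted p = 0.321). In siFOXM1 TNNI1 was at 12.4, 12.99 and 0.674 CPM. In siIQGAP3 it was at 6.19 to 6.58 CPM, below siControl library 3 and above libraries 1 and 2.

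MYH6, the cardiac alpha myosin heavy chain, was highest in siIQGAP3. It was at 6.73, 4.64 and 15.2 CPM in siControl, at 1.94, 2.59 and 6.13 in siIGF2BP1 and at 1.96, 2.73 and 15.3 in siSRF. In each of these 3 groups library 3 was the highest, and the groups overlapped. The log2 fold changes were -1.32 ± 0.75 in siIGF2BP1 and -0.41 ± 0.74 in siSRF (adjusted p = 0.430 and 0.863 by edgeR). MYH6 was at 17.6, 16.5 and 5.55 CPM in siFOXM1, and at 20.5, 22.8 and 23.0 CPM in siIQGAP3, above every siControl library (1.32 ± 0.74, adjusted p = 0.191). MYH6 and MYH7 are near-identical copies between which reads could be split differently, and MYH7 reached at most 0.837 CPM in any library, in siIQGAP3, where it rose (2.90 ± 0.97, adjusted p = 0.0372 by edgeR). ACTA1, the skeletal copy of ACTC1, was at 0.262 to 5.67 CPM. Both copies are named for their likeness in sequence and not by a rule.

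DES, which encodes desmin, fell in all 4 knockdowns. DES was at 13.8, 8.99 and 30.5 CPM in siControl. It was at 1.91, 2.16 and 3.80 CPM in siIGF2BP1, at 2.96, 2.63 and 2.25 in siSRF, at 2.91, 3.21 and 2.87 in siFOXM1 and at 1.15, 1.67 and 1.29 in siIQGAP3. All 12 knockdown libraries thus lay below all 3 siControl libraries, and in siFOXM1 library 3 lay beside the others. The log2 fold changes by edgeR were -2.76 ± 0.42 in siIGF2BP1 (adjusted p = 0.0062), -2.76 ± 0.42 in siSRF (adjusted p = 0.00543), -2.57 ± 0.42 in siFOXM1 (adjusted p = 0.0117) and -3.69 ± 0.44 in siIQGAP3 (adjusted p = 0.00019). The 4 comparisons share the same 3 controls. Against siControl library 3 alone the log2 fold changes were -3.32 to -4.47. Without that library they were -1.93 to -3.05, all past the threshold. In that fit 520, 1273, 1548 and 10711 of all 18965 genes passed in siIGF2BP1, siSRF, siFOXM1 and siIQGAP3. The call was lost in siIGF2BP1 without its library 1 or 2 (adjusted p = 0.0519 and 0.0544), and in siFOXM1 without its library 1 or 2 (adjusted p = 0.071 and 0.0629). It was also lost for siIGF2BP1, siSRF and siFOXM1 when the fit held only the groups compared, and for all 4 when libraries 1 and 2 of each group were summed. Between knockdowns, DES was higher in siFOXM1 than in siIQGAP3 (1.13 ± 0.41, adjusted p = 0.0454).

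**Figure D2:**
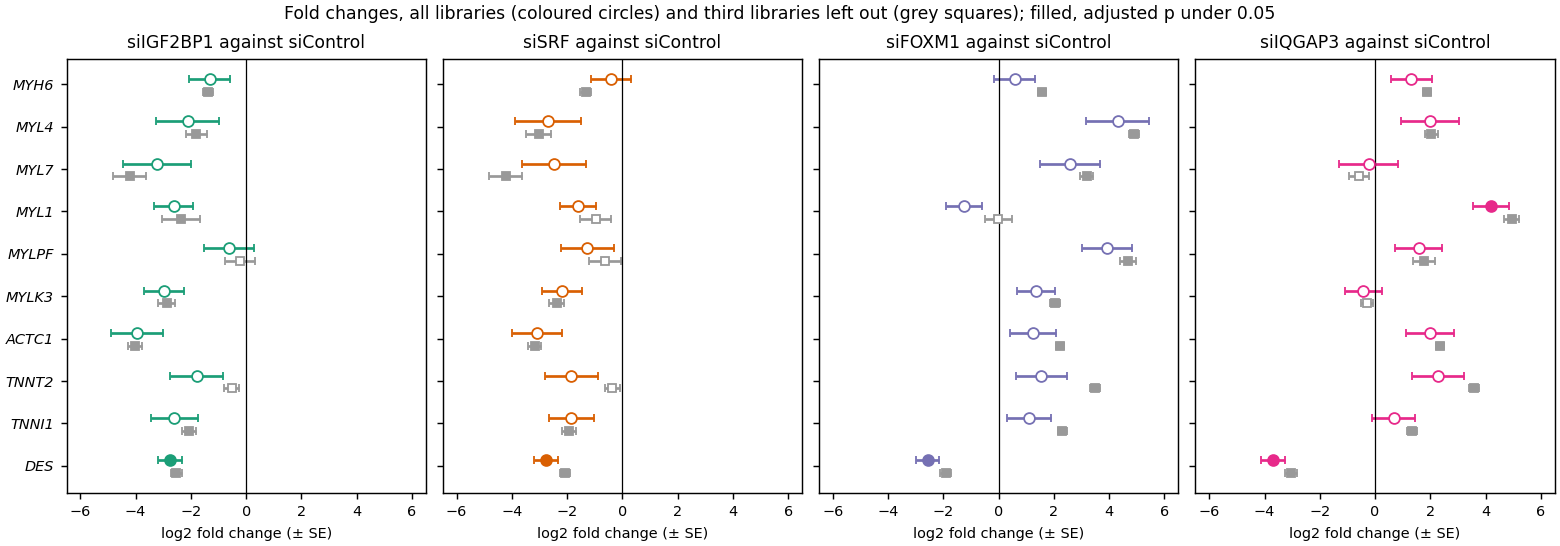
Log2 fold change ± SE of each sarcomere gene in each knockdown against siControl, by edgeR. Coloured circles use all 15 libraries and grey squares leave out library 3 of each group, with filled symbols for an adjusted p under 0.05. DES is filled in all 4 panels (-2.57 to -3.69 with all libraries) and MYL1 in the siIQGAP3 panel (4.18).

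Read as a set against siControl, the direction was shared in siIGF2BP1 and siSRF. All 10 log2 fold changes were below 0 in both, with medians of -2.61 and -2.02 beside 0.01 and 0.01 over all genes tested. In each, 1 of 10 passed, DES, where 1.62% of all genes passed in siIGF2BP1 and 1.57% in siSRF, 1.33% and 1.2% as lower. At an unadjusted p under 0.05, 6 of 10 were lower in siIGF2BP1 and 6 in siSRF, beside 10.1% and 8.49% of all genes. The libraries of the groups did not overlap for 7 genes in siIGF2BP1 and 6 in siSRF, all lower, against 9.57% and 7.2% of all genes lower without overlap. Without siFOXM1 library 3, which lies in neither comparison but enters the shared estimate of the spread, 5 genes fell in siIGF2BP1 and 4 in siSRF, beside 2.09% and 2.15% of all genes. ACTC1, MYL4, MYLK3 and DES fell in both, and TNNI1 in siIGF2BP1. The summed embryonal carcinoma markers were lower than in any siControl library in all 6 of these libraries, and their part in these results was not tested.

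In siFOXM1 the genes were divided by library. Of the 10 genes, 10 were lower in library 3 than in either other siFOXM1 library, 7 of them by more than 10-fold, with a range from 1.07-fold for DES to 225-fold for MYL4. In no other group was any of the 10 genes more than 10-fold lower in library 3. Between siFOXM1 library 3 and libraries 1 and 2, 4.31% and 4.36% of all genes tested differed at least 4-fold in either direction. The share of all genes lower by 10-fold, or by any amount, was not computed. In the test 1 of 10 genes passed against siControl, DES, lower and without overlap, beside 1.12% of all genes called, 0.832% called lower and 8.15% lower without overlap, with a median log2 fold change of 1.29 against -0.02 over all genes. With siFOXM1 library 3 left out 3 genes rose, MYL4 (4.90, adjusted p = 0.000411), MYLPF (4.49, adjusted p = 0.000769) and MYLK3 (1.90, adjusted p = 0.0163), and DES fell, beside 0.704% of all genes higher and 0.657% lower. FOXM1 itself was at 153, 177 and 198 CPM in the 3 siFOXM1 libraries, and SRF at 96.9, 101 and 80.1 CPM, close to its siControl range of 82.8 to 92.2. The summed embryonal carcinoma markers were at 1340 and 1370 CPM in siFOXM1 libraries 1 and 2 and at 335 in library 3, and their part in the split was not tested.

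In siIQGAP3, 2 of 10 genes passed, MYL1 higher and DES lower, beside 32.5% of all genes tested, 10.8% higher and 21.7% lower. The count is no higher than that share would give. The median log2 fold change of the 10 genes was 1.45, beside -0.06 over all genes. The libraries did not overlap siControl for 7 of 10 genes, 6 higher and 1 lower, where 25.2% and 23.1% of all genes did the same. The 6 were MYH6, MYL1, MYL4, MYLPF, ACTC1 and TNNT2. Without siFOXM1 library 3 in the shared spread 6 genes passed, ACTC1, MYL1, MYL4, MYLPF and TNNT2 higher and DES lower, beside 12.1% of all genes higher and 22.3% lower. Against siControl library 3 alone the log2 fold changes were 3.24 for MYL1, -4.47 for DES, 1.41 for ACTC1, 1.13 for TNNT2 and 0.54 for MYH6.

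With library 3 of every group left out, the fits rest on the spread between libraries that are nearly alike. The share of all genes that passed was then 48.9% in siIGF2BP1, 54.2% in siSRF, 52.9% in siFOXM1 and 80.6% in siIQGAP3. Of the sarcomere genes, 8 of 10 fell in siIGF2BP1 beside 27.7% of all genes lower, and 7 of 10 in siSRF beside 30.4%. In siFOXM1 8 rose beside 25.5% of all genes, and DES fell beside 27.4%. In siIQGAP3 7 rose beside 39.7%, and DES fell beside 40.9%. The medians over the 10 genes were -2.22, -2.0, 2.26 and 1.83 in that order, beside -0.05, -0.05, -0.013 and -0.015 over all genes.

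The order of the groups differed between genes. The mean was highest in siFOXM1 for 5 genes, in siIQGAP3 for 4 and in siControl for DES, and lowest in siIGF2BP1 for 6, in siSRF for 3 and in siIQGAP3 for DES. Neighbours in the order mostly overlapped, and for TNNT2 and TNNI1 all 4 neighbouring pairs did. Between siIGF2BP1 and siSRF none of the 10 genes passed by edgeR, 0 had an unadjusted p under 0.05 and 0 passed by DESeq2, where 0.00533% of all genes passed by edgeR. Only MYLK3 was apart without overlap there, as were 6.79% of all genes. All 10 genes were apart without overlap between siIGF2BP1 and siIQGAP3, and between siSRF and siIQGAP3, with 74.9% and 66.5% of all genes. Of these, 7 were lower in siIGF2BP1 than in siIQGAP3 by edgeR (22% of all genes) and 6 lower in siSRF (17%). ACTC1 was lower in both (-5.93 ± 1.03, adjusted p = 0.00104, and -5.09 ± 0.99, adjusted p = 0.00211). Against siFOXM1 none passed by edgeR, beside 0.0107% of all genes lower in siIGF2BP1 and 0.00533% in siSRF. At an unadjusted p under 0.05 there were 8 and 7 lower, beside 3.69% and 2.47% of all genes. By DESeq2 7 and 7 passed as lower, beside 0.312% and 0.202% of all genes. Between siFOXM1 and siIQGAP3 3 passed, MYLPF and DES higher and MYL1 lower in siFOXM1, beside 22.9% and 13.9% of all genes. For MYLPF the groups overlapped, and siFOXM1 library 3, at 0.174 CPM, lay below every siIQGAP3 library.

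Across the 15 libraries the 9 genes other than DES moved together. The median Pearson r of log2 CPM over their 36 pairs was 0.80, with a range of 0.33 to 0.96, and ACTC1 with TNNI1 had the highest value. DES with the other 9 had a median r of -0.06, from -0.24 to 0.27. DES was set apart after these values were seen. The libraries share groups and low counts, so the values are a description of 15 libraries and carry no test. By the same measure the gene most like DES was MYBPC2, a myosin-binding protein of fast skeletal muscle (r = 0.971, Spearman's rho = 0.95), followed by ADAM8, a membrane metalloprotease (r = 0.965, rho = 0.904). The genes with the highest Pearson r were for ACTC1 ARSL (0.971) and DTX4 (0.966), for MYL1 TM4SF18 (0.977) and NOP2 (0.976) and for MYL4 LOC100506990 (0.954) and IFNLR1 (0.945). They were for MYL7 HPD (0.945) and KLK6 (0.934), for MYLPF SPSB4 (0.941) and SV2A (0.933) and for MYLK3 HPD (0.957) and PMEL (0.952). They were for TNNT2 DACT2 (0.972) and FADS1 (0.971), for TNNI1 SVOPL (0.965) and CMTM3 (0.962) and for MYH6 LINC02714 (0.989) and TNFRSF12A (0.988).

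**Figure D3:**
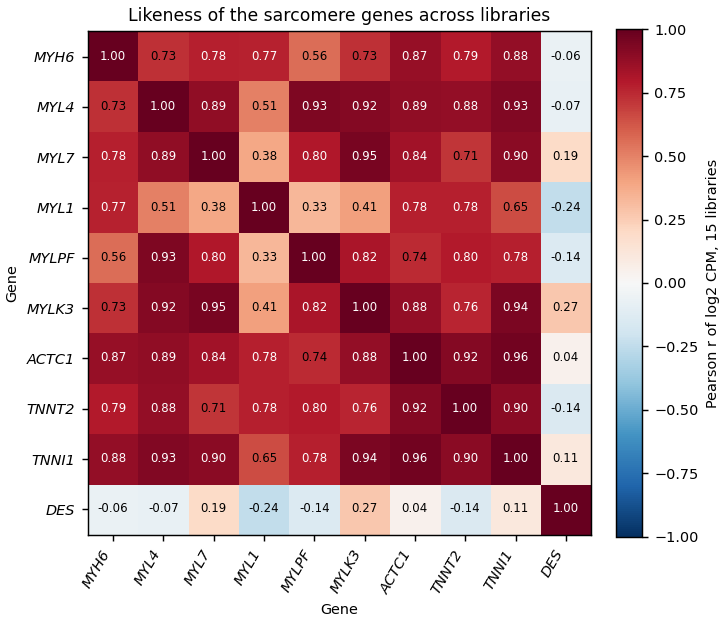
Pearson r of log2 CPM (prior count 2) between each pair of sarcomere genes over the 15 libraries, from -1 (blue) to 1 (red). The block of 9 genes ranges from 0.33 to 0.96, and the DES row and column from -0.24 to 0.27.

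Other sarcomere genes gave few calls by edgeR outside siIQGAP3. Of 69 listed, 54 were tested. In siIGF2BP1 1 rose and 1 fell, in siSRF 0 rose and 1 fell, and in siFOXM1 2 rose and 0 fell. These stand beside 1.62%, 1.57% and 1.12% of all genes called. The median log2 fold changes were -0.425, -0.41 and -0.09. The one that fell in siIGF2BP1 and siSRF was MYOZ1, a Z disc protein that binds calcineurin, from 2.10 to 0.178 and 0.196 CPM as group means (-3.54 ± 0.59 and -3.40 ± 0.59, adjusted p = 0.0114 and 0.0115 by edgeR). CRYAB, a small heat shock protein that binds desmin, rose in siIGF2BP1 and siFOXM1 (1.13 ± 0.24 and 1.101 ± 0.24, adjusted p = 0.0352 and 0.0468), and SYNPO2L, a Z disc protein, rose in siFOXM1 with libraries that overlapped siControl (4.61 ± 0.96, adjusted p = 0.0417). These were named after their values were seen, to complete the counts. By DESeq2 8, 6 and 4 of the list passed in siIGF2BP1, siSRF and siFOXM1, beside 5.52%, 5.6% and 4.38% of all genes. At an unadjusted p under 0.05 by edgeR there were 16, 13 and 9, a rule without a share of all genes in either direction here. In siIQGAP3 6 rose and 10 fell, beside 10.8% and 21.7% of all genes. The median log2 fold change there was -0.38, unlike the 1.45 of the 10 sarcomere genes, and -0.06 over all genes. TNNI3, the cardiac inhibitory troponin, fell from 3.75 to 0.551 CPM (-2.76 ± 0.35, adjusted p = 0.000266) and TNNT1, the slow skeletal troponin T, from 52.0 to 15.02 CPM (-1.79 ± 0.32, adjusted p = 0.0017). MYH2, a fast skeletal myosin heavy chain, rose from 0.175 to 3.73 CPM (4.34 ± 0.87, adjusted p = 0.00324). ACTN3 (-3.14), MYBPC2 (-2.01), MYOM2 (-2.83) and HSPB7 (-2.35) fell there too (adjusted p = 0.00212, 0.0025, 0.00261 and 0.0036 by edgeR).

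Calcium handling and muscle energy genes gave few calls by edgeR outside siIQGAP3. Of 22 tested, 1 fell in siIGF2BP1, 2 in siSRF and 0 in siFOXM1, beside 1.33%, 1.2% and 0.832% of all genes lower, and none rose. In siIQGAP3 1 rose and 8 fell, beside 10.8% and 21.7% of all genes. By DESeq2 4, 3 and 1 of the list passed in siIGF2BP1, siSRF and siFOXM1, beside 5.52%, 5.6% and 4.38% of all genes. An unadjusted p under 0.05 by edgeR was reached by 6, 5 and 5, a rule without a share of all genes in either direction here. The median log2 fold changes were -0.66, -0.56, -0.23 and -0.65, with siIQGAP3 last. CASQ1, a calcium store protein of the sarcoplasmic reticulum, fell from 2.44 to 0.595 CPM in siIGF2BP1 and to 0.417 CPM in siSRF (-2.04 ± 0.37 and -2.55 ± 0.38, adjusted p = 0.0162 and 0.00457 by edgeR). SLN, which encodes sarcolipin, an inhibitor of the calcium pump, fell in siSRF (-4.89 ± 0.94, adjusted p = 0.0205). In siIQGAP3 MB, which encodes myoglobin, fell from 6.54 to 0.0555 CPM (-6.80 ± 1.12, adjusted p = 0.00122), but siControl library 3 was itself at 0.384 CPM. CKM (-3.25), STAC3 (-2.47), JPH1 (-1.37), SLC8A1 (-1.86) and HRC (-2.98) also fell in siIQGAP3 (adjusted p = 0.00794, 0.00935, 0.0177, 0.0227 and 0.026 by edgeR), with STAC3, JPH1 and SLC8A1 overlapping siControl. The 1 that rose there was ATP2A2, the calcium pump of heart and slow muscle, named after its value was seen (0.63 ± 0.22, adjusted p = 0.0432).

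Of the muscle transcription factors, MYOCD followed the low groups, and the list as a whole did not. The median log2 fold changes of the 23 tested were 0.51, 0.46, 0.32 and -0.93 in siIGF2BP1, siSRF, siFOXM1 and siIQGAP3. Over all genes they were 0.01, 0.01, -0.02 and -0.06. With library 3 of every group left out the list medians were -0.008, 0.08, -0.09 and -1.0. MYOCD encodes myocardin, the SRF coactivator of heart and smooth muscle. It was at 0.968, 0.543 and 2.56 CPM in siControl, at 0.101 to 0.179 in siIGF2BP1 and at 0.0752 to 0.284 in siSRF. Both lay below siControl without overlap (-3.30 ± 0.65 and -2.97 ± 0.64, adjusted p = 0.0273 and 0.0376 by edgeR). In siFOXM1 it was at 0.874, 0.836 and 0.305 CPM. Of 23 factors tested MYOCD was the 1 that fell in siIGF2BP1, 1 rose and 1 fell in siSRF, 1 fell in siFOXM1, and 9 fell in siIQGAP3. Of all genes, 1.33%, 1.2%, 0.832% and 21.7% were lower in that order, and 0.368% were higher in siSRF. The one that rose in siSRF was HAND2 (5.73 ± 1.18, adjusted p = 0.0303), at 0 CPM in 2 of 3 siControl libraries. HAND1, also of heart and extraembryonic tissue, fell in siFOXM1 and siIQGAP3 (-3.22 and -1.88, adjusted p = 0.0422 and 0.0395). TBX20 (-4.77), PAX7 (-3.29) and GATA4 (-3.83) fell in siIQGAP3 (adjusted p = 0.00344, 0.00369 and 0.0087 by edgeR). Of these 3, TBX20 did not overlap siControl, and PAX7 and GATA4 did. For GATA4 siControl library 3 was at 0.683 CPM, below all siIQGAP3 libraries, and libraries 1 and 2 were at 27.3 and 34.8 CPM.

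Of 26 smooth muscle and non-muscle contraction genes, all were tested and none passed by edgeR in siIGF2BP1, siSRF or siFOXM1. By DESeq2 2, 1 and 3 passed, in either direction, beside 5.52%, 5.6% and 4.38% of all genes. An unadjusted p under 0.05 by edgeR was reached by 10, 5 and 5, a rule without a share of all genes in either direction here. The median log2 fold changes were -0.37, -0.32 and -0.15. In siIQGAP3 5 rose and 2 fell, beside 10.8% and 21.7% of all genes. The non-muscle light chains MYL6 (0.94 ± 0.27), MYL12A (0.67 ± 0.20) and MYL12B (0.37 ± 0.10) rose (adjusted p = 0.0203, 0.0248 and 0.0146 by edgeR). CALD1 (1.24 ± 0.40) and CNN3 (0.71 ± 0.21), which bind actin, rose as well (adjusted p = 0.0332 and 0.0209). MYH14, a non-muscle myosin heavy chain, fell from 64.2 to 6.52 CPM (-3.30 ± 0.28, adjusted p = 2.47e-05), and MYH11, the smooth muscle heavy chain, fell (-1.65 ± 0.30, adjusted p = 0.00187).

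**Figure D4:**
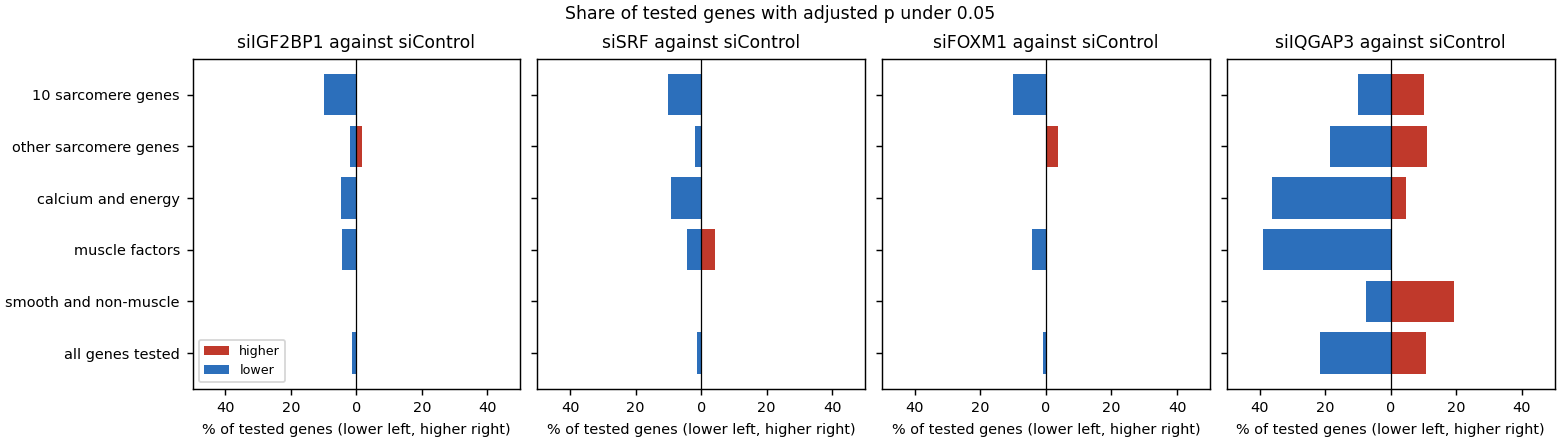
Share of tested genes with an adjusted p under 0.05, in percent, higher to the right in red and lower to the left in blue, for the 10 sarcomere genes, 4 related lists and all 18760 genes tested, in each knockdown against siControl. In siIQGAP3 10.8% of all genes were higher and 21.7% lower, and in the other panels under 2% of all genes passed.

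Summed levels of markers of other cell types differed between groups and libraries. In siIGF2BP1, siSRF and siFOXM1 0 of 10 neural and 0 of 10 fibroblast markers passed by edgeR. By DESeq2 3, 2 and 1 neural and 0, 0 and 0 fibroblast markers passed, beside 5.52%, 5.6% and 4.38% of all genes. An unadjusted p under 0.05 by edgeR was reached by 3, 2 and 2 neural and 0, 1 and 0 fibroblast markers. That rule has no share of all genes in either direction here. Of the per-gene values, the neural medians were 0.12, 0.06 and 0.19 as log2 fold changes. Of 6 endothelial markers tested, 2, 2 and 1 were lower by edgeR, with medians of -2.63, -2.65 and -1.38. Of 12 embryonal carcinoma markers, 4, 3 and 2 were lower, beside 1.33%, 1.2% and 0.832% of all genes. No marker of either list was higher. In siIQGAP3 2 neural markers rose and 1 fell, and 5 fibroblast markers fell. There 1 endothelial marker rose and 1 fell, and 4 embryonal carcinoma markers rose and 2 fell, beside 10.8% of all genes higher and 21.7% lower. The summed neural markers were at 420 to 657 CPM in siControl, 244 to 304 in siIGF2BP1, 246 to 450 in siSRF, 238 to 501 in siFOXM1 and 700 to 709 in siIQGAP3. The summed fibroblast markers were at 2020 to 8980, 5540 to 11300, 4980 to 9640, 7270 to 8990 and 2830 to 2860 CPM, and the endothelial ones at 20.9 to 132, 7.92 to 8.79, 6.84 to 12.7, 6.18 to 61.8 and 79.5 to 85.0 CPM, in the same order. In siFOXM1 library 3 the endothelial sum was 6.18 CPM against 61.8 and 61.1 in libraries 1 and 2. In every library 9 of 10 neural, 9 of 10 fibroblast and 6 of 8 endothelial markers had counts. No marker of these lists was at 0 in all libraries of a group, and their part in the results was not tested.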

How the data were processed

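Total RNA of 15 libraries was read as 100 bp pairs, per the labels' protocols. The submitters' processing notes name STAR, SAMtools, featureCounts and GRCh37, with no role or order. Versions, annotation and strand setting are not given in the sources used here. Raw counts per symbol were deposited by the authors for 28207 genes (3175 without a count), and a normalised signal was deposited for 20407, used only to check the counts. Columns name the siRNA and no replicate number.

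Genes kept by filterByExpr (18760) were scaled by TMM and tested in 1 fit of 5 groups (edgeR 4.0.16, R 4.3.3) with Benjamini-Hochberg adjustment. Each SE is the absolute log2 fold change divided by the square root of the test's F statistic, so it pools the spread of all groups. The procedure was tested on simulated data. Reads shared by overlapping, antisense or near-identical genes are uncertain. The 10 genes, 4 gene lists and 4 marker lists were chosen with earlier results of these data known. Named list genes are those called in any comparison with siControl, at most 8 a list by p. Some genes that meet this rule are not reported here. Alternatives were DESeq2 1.42.0, other scaling, filter and groups, left-out or summed libraries, and listed order as a block. Using the third siControl library as the only control was chosen after seeing the data.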

Additional observations from a re-analysis of the deposited data

How the results depend on the processing

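Counts of the 10 genes that passed against siControl, 1, 1, 1 and 2 in siIGF2BP1, siSRF, siFOXM1 and siIQGAP3, and 16 summed over the 6 pairs of knockdowns, kept these values with no filter. With RLE size factors the first 4 stayed the same and the sum was 15. With DESeq2 they were 5, 3, 3, 4 and 36, the first 4 beside 5.52%, 5.6%, 4.38% and 35.5% of all genes. With the third libraries left out they were 8, 7, 9, 8 and 45, and with libraries 1 and 2 of each group summed 0, 0, 0, 0 and 1 (edgeR called 1, 1, 0 and 10 of all genes there). With only the groups compared in the fit they were 0, 0, 0, 5 and 20, with DES at an adjusted p of 0.238, 0.202, 0.254 and 0.0137. In siIQGAP3 3619 of all 17524 genes passed in that fit. With siControl library 3 as the only control, assumed to vary like the other groups, the log2 fold changes of DES were -3.52, -3.53, -3.32 and -4.47. Leaving out 1 library gave counts of 0 to 5, 1 to 4, 0 to 4, 2 to 6 and 11 to 35. The upper ends came without siFOXM1 library 3, and 0 came without library 1 or 2 of siIGF2BP1 or siFOXM1. Without siControl library 2, 3 passed in siIGF2BP1, beside 581 of all 19065 genes. Without siControl or siSRF library 3, 2 passed in siFOXM1, beside 1548 of 18965 and 403 of 19032 genes.

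No paired analysis was possible because the columns carry no replicate number. With listed order as a replicate block the counts were 1, 1, 1, 2 and 17. Values that changed sign, none called, were MYH6 in siSRF without siControl library 3 (0.23) or siSRF library 1 (0.02; over the libraries left out the range was -1.92 to 0.23), and, against siControl library 3 alone, MYH6 in siFOXM1 (-0.18) and TNNI1 in siIQGAP3 (-0.13). The cause of these shifts was not tested. MYLPF had 6 to 12 counts in the siControl libraries, so a fall in it rests on few counts.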
